A study of Homo sapiens with 10 samples.

Results

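The genes described here make, sense, take up and destroy prostaglandins, and they were chosen by name as 10 members: PLA2G4A, PTGS1, PTGS2, PTGES, PTGES2, PTGES3, HPGD, SLCO2A1, PTGER2 and PTGER4. All 10 were listed in every table, among 17372 symbols that the tables of both experiments share. They were measured by RNA sequencing in KYSE30, KYSE180 and KYSE450, cultured cell lines of human esophageal squamous cell carcinoma. In the first experiment each line gave 1 library from cells treated with interferon-beta (IFN-β), an antiviral cytokine, at 1000 IU/ml for 72 h, and 1 untreated library, for which the protocol names PBS, a saline buffer. In the second, there was 1 library each of KYSE30 and KYSE180 with IRF1-AS knocked down and 1 each with a vector control, the lentivirus having been packaged in HEK293T cells. IRF1-AS is a long RNA without a protein, transcribed opposite the gene of the transcription factor IRF1. That makes 10 libraries in 4 groups, and the cell lines are the replicates. A p-value for a treatment thus refers to the spread between 3 lines or 2 lines and not between cultures of 1 line.

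Prostaglandins are short-lived lipid signals made from arachidonic acid. A phospholipase frees the acid from the membrane, a cyclooxygenase turns it into an unstable intermediate, and a terminal synthase turns that into prostaglandin E2, which signals through receptors on nearby cells. The signal ends when a transporter takes the molecule up and the dehydrogenase encoded by HPGD inactivates it. In squamous and other epithelial tumours PTGS2, the inducible cyclooxygenase also called COX-2, is known for its induction by inflammatory signals, and HPGD is known as its enzymatic counterweight.

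The 2 arms meet in PTGS2 and HPGD, so the sequences just upstream of their start sites are shown, 5′ to 3′, as the 250 bases before a RefSeq start (GRCh38.p14, both on the minus strand). Capitals mark a match to the TATA box letters TATAAA. RefSeq gives 2 HPGD starts, and the one with the lower coordinates is shown.

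PTGS2, chr1:186680424-186680673: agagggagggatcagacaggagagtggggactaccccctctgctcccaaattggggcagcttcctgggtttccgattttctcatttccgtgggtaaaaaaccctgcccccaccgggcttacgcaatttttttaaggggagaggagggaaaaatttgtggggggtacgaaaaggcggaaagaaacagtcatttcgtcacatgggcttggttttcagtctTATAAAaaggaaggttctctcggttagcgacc

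HPGD, chr4:174522489-174522738: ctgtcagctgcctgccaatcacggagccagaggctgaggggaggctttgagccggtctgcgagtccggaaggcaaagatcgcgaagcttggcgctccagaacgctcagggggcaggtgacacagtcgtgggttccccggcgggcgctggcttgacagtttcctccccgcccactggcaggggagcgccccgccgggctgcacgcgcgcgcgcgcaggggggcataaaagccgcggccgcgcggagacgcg

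The PTGS2 window holds TATAAA at bases −32 to −27 before the start, a match found on either strand in 10.7% of 35116 such windows. Neither HPGD window holds those letters. The HPGD window shown has 29 CpG dinucleotides and the other one 4, the PTGS2 window has 9, and the median over all windows is 11. Neither the interferon-stimulated response element (GAAA, any 2 bases, GAAA), found in 3.02% of all windows, nor the gamma-activated site TTCNNNGAA, found in 6.57%, occurs on either strand in any of the 13 windows that RefSeq gives for 9 of the members. This says only that these letters are not in these windows. PTGS2 spans chromosome 1 from 186671791 to 186680427 and HPGD chromosome 4 from 174490177 to 174523154 (GENCODE release 29, GRCh38, minus strand). No exon of a member overlaps an exon of another annotated gene in that release.

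Values are FPKM as deposited, read numbers scaled for transcript length and library size, so levels can be set side by side between genes of 1 table. The tables of the 2 experiments were normalized separately. In bulk RNA, fewer cells that express a gene and less of its RNA per cell cannot be told apart. Of the 10 members, 7 reached 1 FPKM in at least 1 library and 3 of these, PLA2G4A, PTGES2 and PTGES3, did in every library. PTGS1, SLCO2A1 and PTGER2 stayed under 1 FPKM throughout, with 0.262 as their highest value. The depth of the libraries is unknown, so no counting interval can be given.

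Each library was also divided by a median-of-ratios factor before testing, because the IFN-β-treated and untreated KYSE450 libraries had factors of 1.16 and 0.819 while the 2 libraries of each other line were close to each other. Tests used limma on log2(scaled FPKM + 1) with the line and the treatment as terms, over all genes at 1 FPKM or more in 3 of the IFN-β experiment's libraries or 2 of the knockdown experiment's. Fold changes on this scale understate the change of low genes. All 8 squamous epithelial markers reached 1 FPKM in at least 1 library of each group. In the first experiment KRT5, KRT14 and KRT6A were low in KYSE30, at 1.37 to 6.33 FPKM, and the other markers stood at 17.0 FPKM or more there. In KYSE180 and KYSE450 these 3 keratins stood at 46.7 FPKM or more. In KYSE30 of the knockdown experiment they stood at 13.6 to 228 FPKM. The leukocyte markers PTPRC, CD3E, CD14 and HBB stayed under 0.5 FPKM in every library, and HBB was listed at 0 in all of them. The 6 leukocyte markers summed to 2.99 to 16.6 FPKM in IFN-β-treated cells and 0.84 to 9.59 FPKM in untreated cells, and most of that was CD68, at 2.5, 15.84 and 5.1 FPKM in IFN-β-treated KYSE30, KYSE180 and KYSE450 and 1.66, 8.71 and 0.61 FPKM in the untreated libraries. They summed to 2.75 to 9.93 FPKM after knockdown and 2.03 to 9.3 FPKM in vector controls. The 5 stromal markers summed to 0.39 to 1.68 FPKM in IFN-β-treated cells and 0.8 to 2.28 FPKM in untreated cells, and to 1.8 to 6.21 FPKM after knockdown and 4.75 to 6.13 FPKM in vector controls. The part of these markers in the results was not tested. The interferon-stimulated gene IFI27 stood at 659, 819 and 1075 FPKM in IFN-β-treated KYSE30, KYSE180 and KYSE450, and at 1.61, 1.06 and 1.72 FPKM in the untreated libraries.

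**Figure D1:**
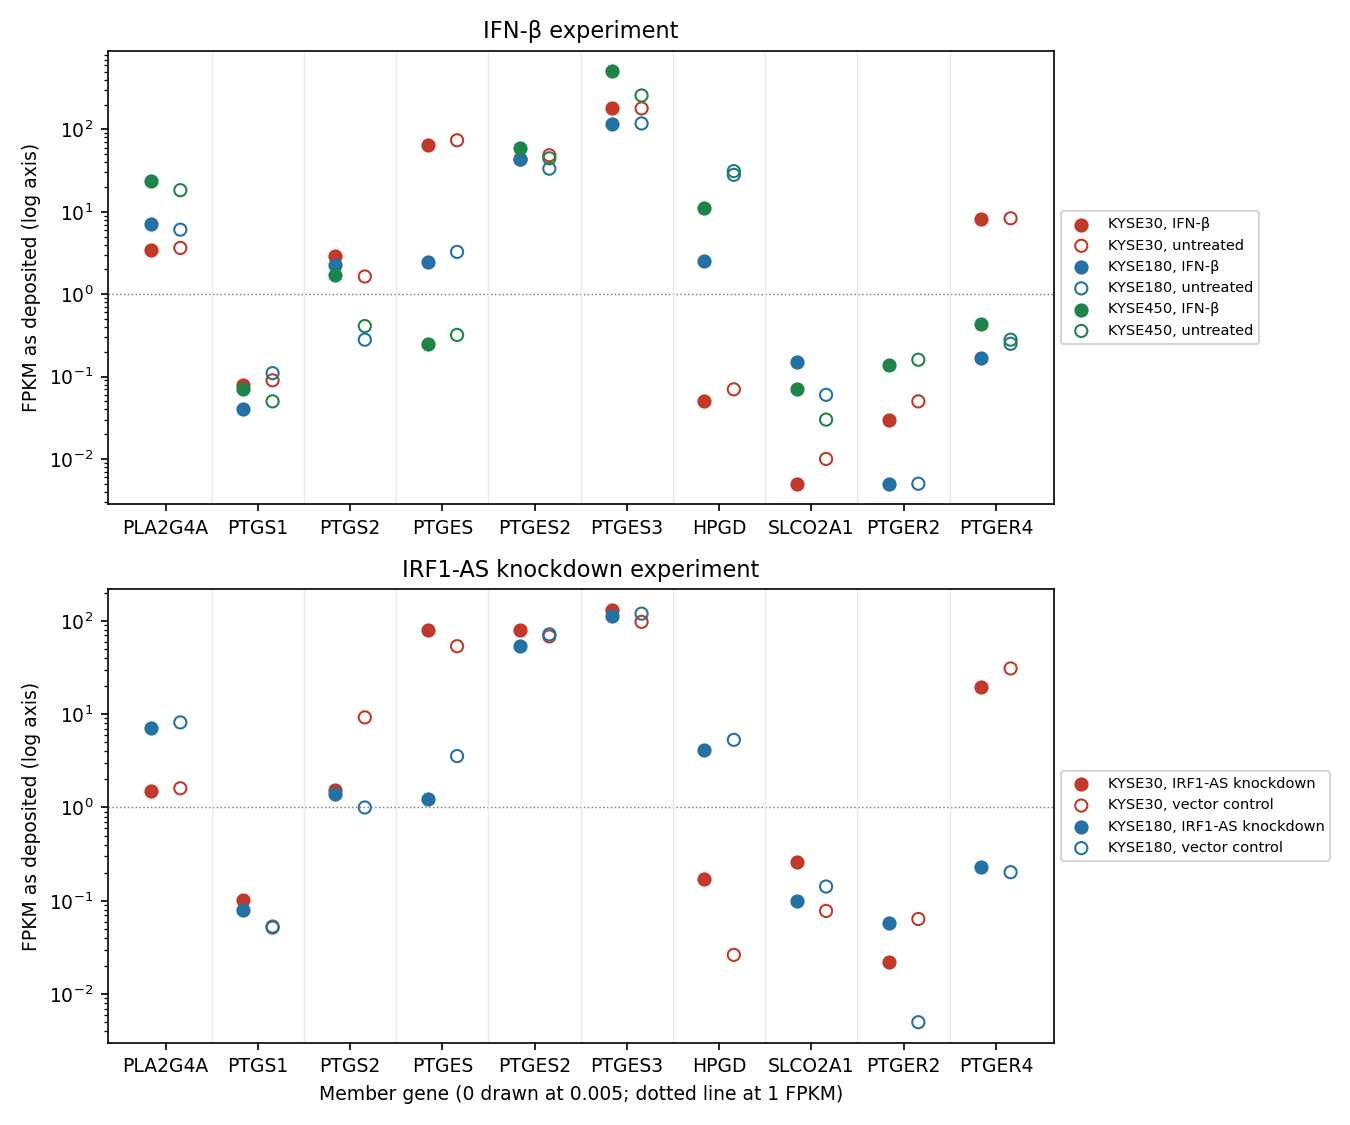
FPKM as deposited (log axis) of the 10 members in each library of the IFN-β experiment (upper) and the knockdown experiment (lower), coloured by cell line, with treated libraries as filled points left of their controls as open points and values of 0 drawn at the bottom. PTGES and PTGER4 are high in KYSE30 and HPGD is at 0.05 and 0.07 FPKM there in the upper panel, while PTGS1, SLCO2A1 and PTGER2 lie under the dotted line at 1 FPKM in both.

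The first question was how the pathway stood after IFN-β. By value, PTGS2 was higher and HPGD lower in IFN-β-treated cells of all 3 lines, but neither passed the test after scaling. None of the 6 members tested was called by limma, beside 0.402% of 12428 genes called. At an unadjusted p under 0.05 there were 2 members (PTGS2 and HPGD) and 1219 of the 12428 genes. PTGS2 entered the test through its treated libraries, so this count supports nothing about the members. The median log2 difference of the 6 was 0.04, against −0.01 over all genes tested. The members not tested were PTGS1, SLCO2A1 and PTGER2, which are low throughout, and PTGER4, which reached 1 FPKM in KYSE30 alone.

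PTGS2 stood at 2.92, 2.28 and 1.71 FPKM in IFN-β-treated KYSE30, KYSE180 and KYSE450, against 1.64, 0.28 and 0.41 FPKM in the untreated libraries. As deposited, every treated library lay above every untreated one. After scaling the groups overlapped, since treated KYSE450 came below untreated KYSE30. The treated libraries were 1.78-fold, 8.14-fold and 4.17-fold of their own controls as deposited. After scaling the log2 difference was 0.87 ± 0.19 (SE, n = 3 lines, limma, adjusted p = 0.252), and with a pseudocount of 0.1 in place of 1 it was 1.61. On the values as deposited PTGS2 passed the test in limma, with a log2 difference of 0.96 ± 0.24 (SE) and an adjusted p of 0.00394. The difference was thus similar and its SE larger than after scaling, though the p was smaller. Limma pools the spread of all genes and did so differently in the 2 fits, so their p-values cannot be set side by side. PTGS2 passed the filter on low values through the 3 treated libraries and untreated KYSE30. It would not have passed without the treated libraries, so its p-values under IFN-β are descriptions and support no difference.

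HPGD encodes 15-hydroxyprostaglandin dehydrogenase, which starts the breakdown of prostaglandin E2. It stood at 0.05, 2.52 and 10.99 FPKM in IFN-β-treated KYSE30, KYSE180 and KYSE450, against 0.07, 28.06 and 31.14 FPKM in the untreated libraries. The gene was near 0 in both KYSE30 libraries, where values carry 2 decimals and a ratio is coarse. In the other lines it was at 8.98% of untreated in KYSE180 and at 35.3% of untreated in KYSE450. The log2 difference over the 3 lines was −1.64 ± 0.58 (SE, n = 3 lines, limma, adjusted p = 0.499). Without KYSE30, the line in which it is near 0, limma gave −2.44 with an adjusted p of 0.0202 (n = 2 lines). Without KYSE180 it gave −0.96 (adjusted p = 0.653, n = 2 lines). KYSE30 is singled out by the HPGD values themselves, so the smaller of these p-values is a description and supports no call. On the values as deposited limma gave −1.50 with an adjusted p of 0.00357, which again cannot be set beside the p after scaling.

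Some squamous markers were also lower by value after IFN-β in KYSE180 and KYSE450. The scaled log2 ratios in these lines were −0.94 and −0.99 for KRT5, −0.98 and −1.23 for KRT14, and −0.93 and −0.55 for DSG3. Of the 8 markers 4 were below 0 in both lines (TP63 is the other), EPCAM was above 0 in both and 3 were split. The 8 summed to 331 to 5360 FPKM in IFN-β-treated cells and 323 to 6520 FPKM in untreated cells. Their part in the HPGD result was not tested.

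The ratio of PTGS2 to HPGD within a library does not depend on the scaling, since both values share the library. It was 58.4, 0.905 and 0.156 in IFN-β-treated KYSE30, KYSE180 and KYSE450, against 23.4, 0.00998 and 0.0132 in the untreated libraries. PTGS2 was thus the lower of the pair in untreated KYSE180 and KYSE450, and stayed so after IFN-β, narrowly in KYSE180. The log2 ratio was higher after IFN-β in 3 of 3 lines, with a difference of 1.32 for KYSE30, 6.503 for KYSE180 and 3.56 for KYSE450, a mean of 3.79 ± 2.60 (SD, n = 3 lines). The KYSE30 ratios divide by HPGD at 0.05 FPKM after IFN-β and 0.07 FPKM without it, so they are coarse. In the vector controls of the knockdown experiment the ratio was 350.8 in KYSE30 and 0.189 in KYSE180. Control libraries of 1 line thus also differed widely between the experiments, a gap that was not tested. An exact two-sided sign-flip permutation test gave p = 0.25, the smallest that 3 lines allow.

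**Figure D2:**
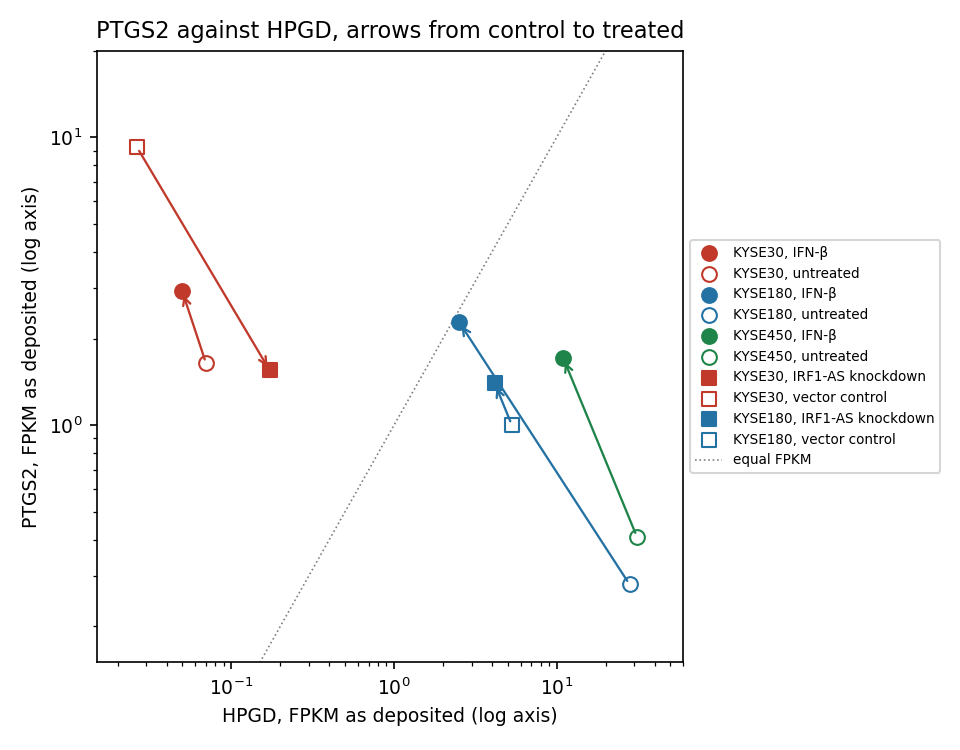
PTGS2 against HPGD, both in FPKM as deposited on log axes, with an arrow from each control library (open) to its treated library (filled), circles for the IFN-β experiment and squares for the knockdown experiment. The 3 IFN-β arrows point up and to the left, and every KYSE30 point lies left of the dotted line of equal FPKM, on the side where PTGS2 exceeds HPGD.

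None of the terminal synthases passed the test. PTGES, the inducible microsomal prostaglandin E synthase usually paired with PTGS2, stood at 65.33, 2.43 and 0.25 FPKM in IFN-β-treated KYSE30, KYSE180 and KYSE450, against 73.73, 3.26 and 0.32 FPKM in the untreated libraries. It was lower by value in all 3 lines, with a log2 difference of −0.22 ± 0.13 (SE, n = 3 lines, limma, adjusted p = 0.605), and treated and untreated libraries overlapped. PTGES2, a membrane-associated synthase, stood at 44.16, 43.77 and 60.02 FPKM after IFN-β and at 48.51, 33.34 and 44.53 FPKM without it, with a log2 difference of 0.07 ± 0.14 (SE, n = 3 lines, limma, adjusted p = 0.878). The groups overlapped, and PTGES2 was higher by value in KYSE180 alone after scaling.

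PTGES3, known both as the cytosolic synthase and as the HSP90 co-chaperone p23, stood at 180.08, 115.72 and 505.72 FPKM in IFN-β-treated KYSE30, KYSE180 and KYSE450, against 179.54, 117.99 and 258 FPKM in the untreated libraries. The difference lay in KYSE450, with a log2 ratio of 0.97 as deposited and 0.47 after scaling, and over the 3 lines it was 0.16 ± 0.15 (SE, n = 3 lines, limma, adjusted p = 0.727). The gene has 5 named pseudogenes in the annotation, and the sources used here do not state how reads shared with them were counted.

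PLA2G4A, the cytosolic phospholipase that frees arachidonic acid, stood at 3.41, 7.18 and 23.72 FPKM in IFN-β-treated KYSE30, KYSE180 and KYSE450, against 3.64, 6.06 and 18.27 FPKM in the untreated libraries. Treated and untreated libraries lay side by side within each line, with a log2 difference of 0.01 ± 0.14 (SE, n = 3 lines, limma, adjusted p = 0.976). PTGER4, the EP4 receptor for prostaglandin E2, stood at 8.15, 0.17 and 0.44 FPKM after IFN-β and at 8.33, 0.25 and 0.28 FPKM without it. PTGER2, the EP2 receptor, was listed at 0 in both KYSE180 libraries and did not exceed 0.16 FPKM in the others of this experiment. SLCO2A1, the prostaglandin uptake transporter, did not exceed 0.15 FPKM and the constitutive cyclooxygenase PTGS1 did not exceed 0.11 FPKM there.

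**Figure D3:**
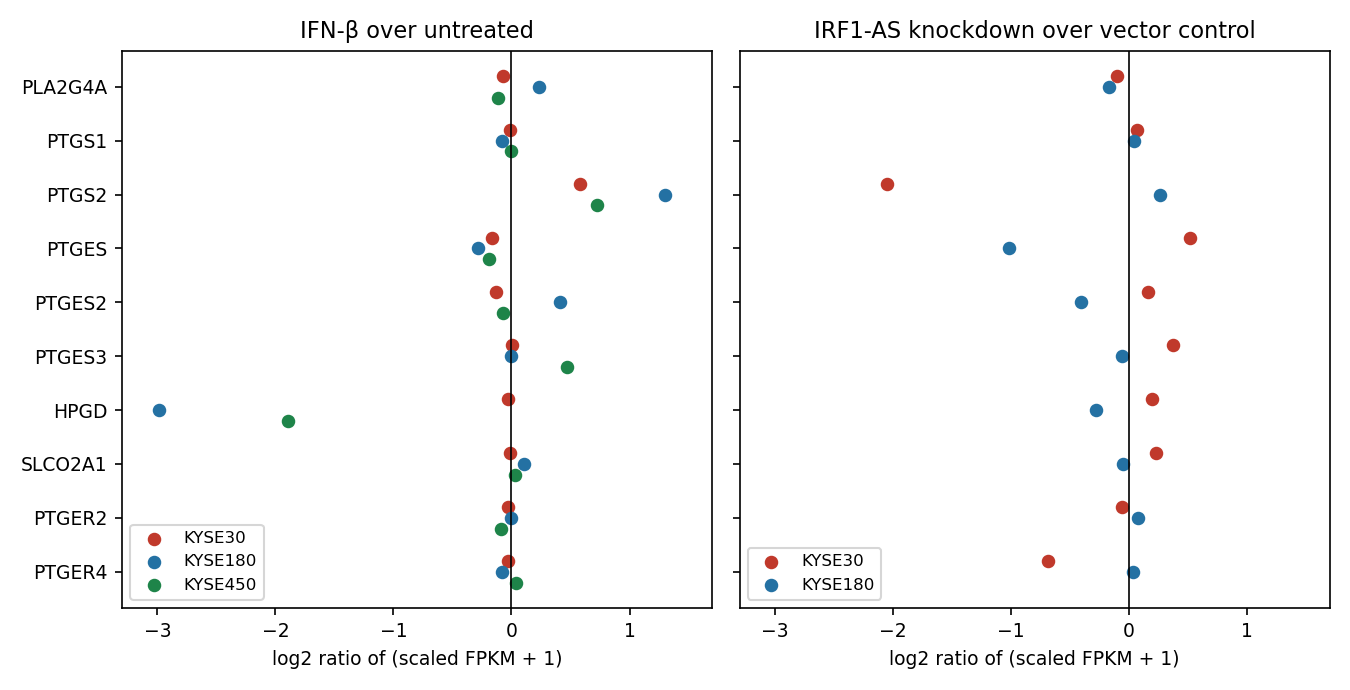
Log2 ratio of (scaled FPKM + 1) of each member within each line, for IFN-β over untreated (left) and IRF1-AS knockdown over vector control (right), 1 point per line. In the left panel PTGS2 is to the right in 3 of 3 lines (0.58, 1.30 and 0.72 in KYSE30, KYSE180 and KYSE450) and HPGD far to the left in KYSE180 (−2.99) and KYSE450 (−1.90), while in the right panel PTGS2 is at −2.06 in KYSE30 and 0.26 in KYSE180.

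The wider prostaglandin and eicosanoid list holds 41 further genes for other synthases, receptors, reductases, phospholipases and the lipoxygenase branch. Of these, 40 were listed in the first experiment and 14 passed the filter. None of the 14 was called after IFN-β by limma, and 3 had an unadjusted p under 0.05, where 1219 of all 12428 genes did. Their median log2 difference was −0.24, against −0.01 over all genes tested. Of the 14, 11 had a difference below 0 by value, and no gene of the list had a log2 ratio of 1 or more in size in 1 direction in every line.

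The second question was how the members stood after IRF1-AS knockdown. None of the 7 tested was called by limma, none had an unadjusted p under 0.05, and 0% of 12799 genes were called in this comparison (850 had an unadjusted p under 0.05). The median log2 difference of the 7 was −0.14, against −0.01 over all genes tested. The design has 2 lines, KYSE30 and KYSE180, and a mean over them can hide opposite directions, as for PTGS2 and PTGES.

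PTGS2 stood at 1.55 FPKM in KYSE30 and 1.40 FPKM in KYSE180 after knockdown, against 9.24 and 1.001 FPKM in the vector controls. It was thus at 16.8% of control in KYSE30 and at 139.6% of control in KYSE180. The log2 difference was −0.90 ± 0.56 (SE, n = 2 lines, limma, adjusted p = 0.817). It was −2.06 without KYSE180 and 0.26 without KYSE30, each a value with no test.

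In KYSE30, some interferon genes were also higher by value in the vector control. The interferon-stimulated gene ISG15 stood at 346 FPKM in KYSE30 and 23.7 FPKM in KYSE180 after knockdown, against 1073 and 32.6 FPKM in the vector controls. IRF1 stood at 5.88 and 1.20 FPKM after knockdown, against 31.1 and 1.83 FPKM, and C5orf56, an older symbol for the IRF1 antisense gene, at 3.04 and 0.948 FPKM against 6.86 and 1.08 FPKM. The antisense gene was thus lower by value mainly in KYSE30. IFI27 had another pattern, at 3.52 and 2.69 FPKM after knockdown, against 4.59 and 26.04 FPKM. The part of the interferon genes in the PTGS2 value was not tested.

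PTGES stood at 79.8 FPKM in KYSE30 and 1.23 FPKM in KYSE180 after knockdown, against 53.5 and 3.56 FPKM in the vector controls. The lines again went opposite ways, and the log2 difference was −0.25 ± 0.39 (SE, n = 2 lines, limma, adjusted p = 0.928). PTGER4 stood at 19.6 and 0.229 FPKM after knockdown, against 30.9 and 0.203 FPKM, so that it was lower by value in the only line that has it. HPGD stood at 0.172 and 4.17 FPKM after knockdown, against 0.0263 and 5.31 FPKM, a log2 difference of −0.05 ± 0.25 (SE, n = 2 lines, limma, adjusted p = 0.985).

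PLA2G4A stood at 1.49 and 7.11 FPKM in KYSE30 and KYSE180 after knockdown, against 1.61 and 8.16 FPKM in the vector controls, and was lower by value in both lines. PTGES2 stood at 79.5 and 53.7 FPKM, against 68.2 and 71.7 FPKM. PTGES3 stood at 131 and 114 FPKM, against 97.6 and 119 FPKM. For these 2 synthases knockdown and vector control libraries overlapped. The ratio of PTGS2 to HPGD was 9.02 in KYSE30 and 0.335 in KYSE180 after knockdown, against 350.8 and 0.189 in the vector controls. Its log2 change averaged −2.23 ± 4.32 (SD, n = 2 lines, exact two-sided sign-flip permutation p = 1, where 0.5 is the smallest possible). The KYSE30 ratios divide by HPGD at 0.172 FPKM after knockdown and 0.0263 FPKM in the vector control. They are thus coarse, and so is the mean. Of the wider list 17 genes passed the filter here and none was called by limma, none of them at an unadjusted p under 0.05.

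PTGES and PLA2G4A differed more between KYSE30 and the other lines than between treatments, by log2 difference. PTGS2 did not in the first experiment, with −0.76 and −0.79 between lines and 0.87 after IFN-β. HPGD is not ranked in this way, since it could hardly fall in KYSE30. Its scaled log2 ratio after IFN-β was −2.99 in KYSE180 and −1.90 in KYSE450. In untreated KYSE30 the order of the members by level was PTGES3, PTGES, PTGES2, PTGER4, PLA2G4A and PTGS2, with HPGD close to 0. In untreated KYSE450 it was PTGES3, PTGES2, HPGD and PLA2G4A, with PTGS2, PTGES and PTGER4 all under 1 FPKM. Untreated KYSE180 resembled KYSE450 in having HPGD at 28.06 FPKM and PTGER4 at 0.25 FPKM, and had PTGES between the other lines at 3.26 FPKM. These orders are of single libraries.

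Line differences were tested with the 2 libraries of each line as replicates and the treatment as a term. The error in these tests is how far the treatment difference varies from line to line. Their p-values thus do not measure the spread between cultures of 1 line treated alike. HPGD was under 1 FPKM in KYSE30, and PTGES in KYSE450, so each passed the filter only through the other lines and had to differ from them. Their differences against those lines are given as descriptions and left out of the counts. Between KYSE180 and KYSE30 in the first experiment, of 5 members PLA2G4A was higher in KYSE180 and 3 were lower (PTGS2, PTGES and PTGES3), where 45.7% of all genes tested were called, 22.4% higher and 23.3% lower. Between KYSE450 and KYSE30, of 4 members 2 were higher in KYSE450 (PLA2G4A and PTGES3) and PTGS2 was lower, beside 46.6% of all genes, 22.8% higher and 23.8% lower. Between KYSE450 and KYSE180, of 5 members 3 were higher in KYSE450 (PLA2G4A, PTGES2 and PTGES3) and none lower, beside 49.1% of all genes, 24.5% higher and 24.7% lower. With the lines this different, these counts mark nothing particular to the members.

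PTGES was lower in KYSE180 than in KYSE30, with a log2 difference of −4.38 ± 0.15 (SE, n = 2 libraries a line, limma, adjusted p = 5.16e-05). KYSE450 minus KYSE30 was −5.83, given as a description. In the libraries of the knockdown experiment, which are separate from these, the KYSE180 minus KYSE30 difference was −4.44 ± 0.39 (SE, n = 2 libraries a line, limma, adjusted p = 0.00239), beside 29% of all genes called there. Of the 5 members there that did not owe passing the filter to 1 line, PLA2G4A was called higher in KYSE180, beside 15% of all genes, and PTGES lower, beside 14%. The PTGES call between KYSE180 and KYSE30 in the first experiment held in all 11 alternatives run.

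HPGD was near 0 in KYSE30 in both experiments and above 2 FPKM in every library of the other lines. Its log2 difference from KYSE30 was 3.13 for KYSE180 and 4.25 for KYSE450, and 2.34 for KYSE180 in the knockdown experiment, all as descriptions. Between KYSE450 and KYSE180, where it is present in both lines, the difference was 1.12 ± 0.72 (SE, n = 2 libraries a line, limma, adjusted p = 0.255). Without 1 library it ran from 0.11 to 2.135, so its size depends on single libraries.

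PLA2G4A was lowest in KYSE30 and highest in KYSE450. It was higher in KYSE450 than in KYSE30 by 2.25 ± 0.17 and higher in KYSE450 than in KYSE180 by 1.68 ± 0.17 (SE, n = 2 libraries a line, limma, adjusted p = 0.000308 and 0.000777). The step between KYSE180 and KYSE30 was 0.57 ± 0.17 (adjusted p = 0.0319, limma) and 1.697 ± 0.23 in the knockdown experiment (adjusted p = 0.00697). The smaller step lost its call without any 1 of 5 libraries (adjusted p between 0.0523 and 0.226 without either KYSE30 library, treated KYSE180 or either KYSE450 library).

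PTGER4 was high in KYSE30 and under 1 FPKM in the other lines in both experiments. In the knockdown experiment its KYSE180 minus KYSE30 difference was −4.44, but it passed the filter only through KYSE30 and so had to differ, and the value is given as a description. PTGS2 was lower in KYSE180 than in KYSE30 by −0.76 ± 0.23 and lower in KYSE450 than in KYSE30 by −0.79 ± 0.23 (SE, n = 2 libraries a line, limma, adjusted p = 0.0385 and 0.0341). These calls were lost in 8 of 10 and 6 of 10 alternatives. They include leaving out any 1 library except treated KYSE180 for the first, with an adjusted p of up to 0.280, and any 1 KYSE30 or KYSE450 library for the second, with up to 0.255. In the knockdown experiment the difference was −1.28 ± 0.56 (limma, adjusted p = 0.148).

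PTGES3 was lower in KYSE180 and higher in KYSE450 than in KYSE30, by −0.83 ± 0.18 and 0.97 ± 0.18 (SE, n = 2 libraries a line, limma, adjusted p = 0.0131 and 0.00729). In the knockdown experiment the KYSE180 minus KYSE30 difference was −0.04 ± 0.20 (limma, adjusted p = 0.911). The calls were lost without a KYSE30 library, with an adjusted p of 0.169 and 0.0849 for KYSE180 and of 0.0524 and 0.107 for KYSE450 (without the untreated, then the treated one), and the first also without treated KYSE180 (0.0630). PTGES2 differed least: it was higher in KYSE450 than in KYSE180 by 0.60 ± 0.17 (adjusted p = 0.0300, limma). That call was lost without untreated KYSE180 (0.116), untreated KYSE450 (0.153) or treated KYSE450 (0.0717), and on the values as deposited (0.194).

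**Figure D4:**
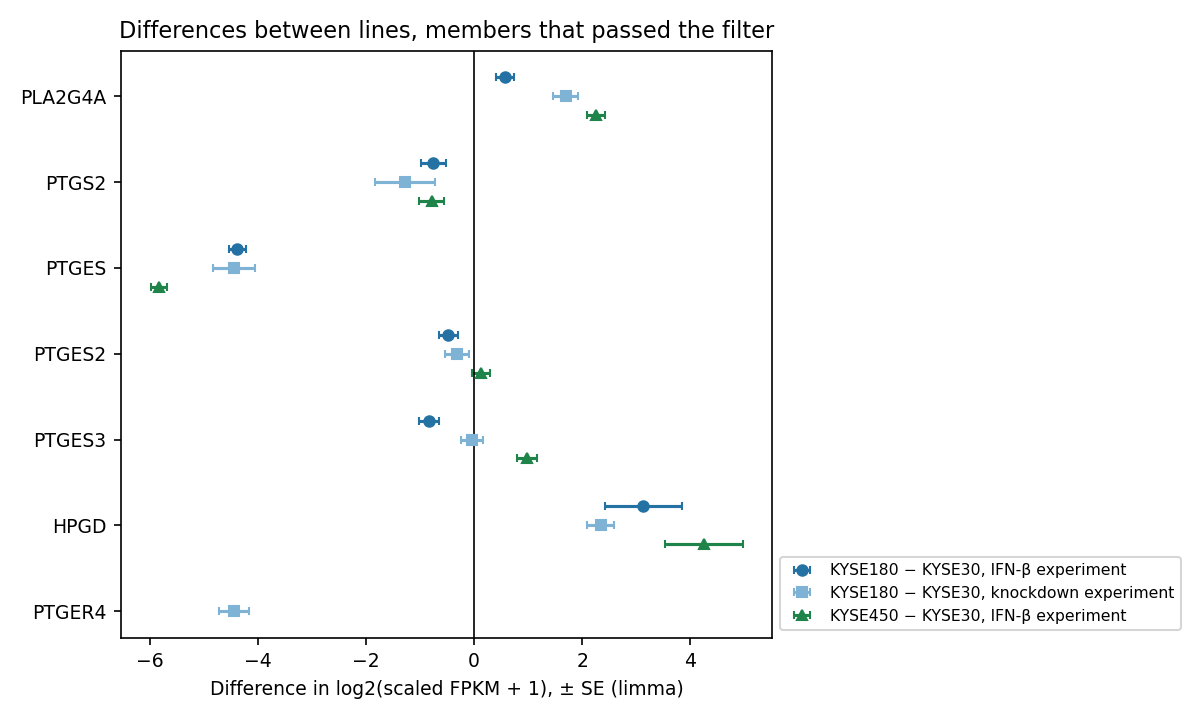
Differences between lines in log2(scaled FPKM + 1), ± SE from limma, for the members that passed the filter, with 2 libraries a line. Differences of HPGD, of PTGER4 and of PTGES in KYSE450 are descriptions, since these passed the filter through the line or lines where they are high. PTGES lies far left in all 3 comparisons (−4.38, −4.44 and −5.83) and HPGD and PLA2G4A to the right in all 3, while PTGES3 lies on both sides of 0. PTGER4 was tested in the knockdown experiment only.

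Of the wider list's 9 reductases, AKR1C1, AKR1C2, AKR1C3, AKR1B1, CBR1 and PTGR1 were higher by value in KYSE180 and KYSE450 than in KYSE30. This held in both treatments. All of these but CBR1 were near or under 1 FPKM in KYSE30. The share of all genes with this order was not computed, so it marks nothing particular to the reductases. PTGR2 and PTGR3 were called in neither comparison with KYSE30, and CBR3 was lower in KYSE450 (limma). PTGR1, prostaglandin reductase 1, acts on the product of HPGD in breakdown. It stood at 0.82, 288 and 32.5 FPKM in IFN-β-treated KYSE30, KYSE180 and KYSE450, against 0.80, 348 and 22.8 FPKM in the untreated libraries. It passed the filter only through the lines where it is high, so its log2 differences from KYSE30, 7.28 for KYSE180 and 3.97 for KYSE450, are descriptions.

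AKR1B1, an aldo-keto reductase with prostaglandin F synthase activity, stood at 0.12, 43.53 and 53.95 FPKM in the same order after IFN-β, against 0.4, 50.1 and 41.55 FPKM without it. AKR1C3 stood at 370 and 531 FPKM in treated and untreated KYSE180. AKR1C1, AKR1C2 and AKR1C3 are close copies of each other, so their single values are uncertain: the sources do not say how ambiguous reads were assigned. Of the 14 genes of the list tested, 9 were called between KYSE180 and KYSE30, all higher in KYSE180, where 45.7% of all genes were called and 22.4% were higher. Between KYSE450 and KYSE30 8 were higher and CBR3 lower, beside 22.8% and 23.8% of all genes. Between KYSE450 and KYSE180, 9 were called, all lower in KYSE450, beside 24.7% of all genes. Some of these genes, PTGR1 and AKR1B1 among them, passed the filter only through the lines where they are high, so the counts support nothing about the list.

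The genes whose scaled profile over the 6 libraries of the first experiment was most like that of PTGS2 were PMAIP1, TNFRSF10B and MCPH1, with a Pearson r of 0.990, 0.984 and 0.979 among 8363 genes ranked. PMAIP1 and TNFRSF10B encode a mitochondrial cell death protein and a death receptor. Over the 4 knockdown libraries the r was 0.844 and 0.928 for these and −0.566 for MCPH1. The genes most like HPGD were FOXQ1, TRIM59 and ZNF397, with an r of 0.994, 0.989 and 0.985, and of 0.999, 0.965 and 0.743 over the knockdown libraries. FOXQ1, a forkhead transcription factor gene, stood at 0.44, 3.25 and 8.73 FPKM in IFN-β-treated KYSE30, KYSE180 and KYSE450, against 0.54, 12.45 and 15.72 FPKM in the untreated libraries. The points share their lines and libraries, so these r are descriptions of 6 and 4 libraries.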

How the data were processed

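Per the file headers, the deposited values are FPKM in 1 table per library, and the authors' FPKM were read as they stand. Per the submitters' processing notes, TopHat, HTSeq and hg38 were used. Their versions, the annotation and the strand setting are not given in the sources. The gene part of the IFN-β tables sums to between 988427 and 993533 in each library and has 2 decimals, and the knockdown tables sum to between 399081 and 425340, so the experiments were fitted apart. FPKM carry no depth, which is unknown.

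Rows of the long non-coding part were added up by gene, as were same-named copies in the knockdown tables. Genes with at least 1 FPKM in 3 libraries (IFN-β) or 2 libraries (knockdown) were kept, scaled by median-of-ratios factors from genes above 0 in every library, and fitted as log2(FPKM + 1) in limma 3.58.1 (trend and robust options) in R 4.3.3. Terms were line and treatment, with Benjamini-Hochberg adjustment at 0.05 over all genes. Scaling was made the main choice because of the shift in KYSE450. The tests were run on simulated data with large changes that were alike in every line. That run does not show how they do on smaller changes or on changes that differ between lines. Libraries pair by cell line, and their deviations from group means correlated across genes at 0.841 or more in each line. Genes were named by a fixed rule: PTGS2, HPGD and called members in full, other list genes if called under a treatment or 2-fold changed in every line, and the 3 genes most like PTGS2 and HPGD. PTGR1, AKR1B1, the AKR1C genes and FOXQ1 are given in more detail and were chosen after their values were seen. Members and lists were chosen with earlier results of these data known. Promoter sequences are RefSeq's (GRCh38.p14).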

Additional observations from a re-analysis of the deposited data

Results flagged for a closer look

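Long non-coding genes named for or next to members are listed in a separate part of the IFN-β tables, and some stood above every untreated library there. The rows of that part went through the same filter, scaling and tests as the other genes. PACERR (ENSG00000273129), on the opposite strand from PTGS2 with its 5′ end 195 bases upstream, was at 0.646 FPKM in IFN-β-treated KYSE30 and 0.602 FPKM in IFN-β-treated KYSE180, against 0.467 FPKM in untreated KYSE30 and a listed 0 in untreated KYSE180. In KYSE450 it was at 0.237 FPKM after IFN-β and 0.292 FPKM without it. PTGES2-AS1, whose 5′ end lies 67 bases from that of PTGES2, was at 1.05 FPKM in IFN-β-treated KYSE180 against 0.658 FPKM in the untreated library, and was lower by value after IFN-β in the other lines. None of these was tested, since none reached 1 FPKM in 3 libraries. All are low values in tables of unknown depth.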

How the results depend on the processing

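Over all genes, 50 were called under IFN-β after scaling, 237 on the values as deposited, 13 with no filter on low values and 13 with no replicate block. Between 32 and 78 were called without 1 line. Under IRF1-AS knockdown limma called 0 in all 6 alternatives that had a test. Between KYSE180 and KYSE30 5678 genes were called, and between 2926 and 5552 without 1 library. Between KYSE450 and KYSE30 5793 were called, and between 2932 and 6637 without 1 library. In the knockdown experiment KYSE180 against KYSE30 gave 3711, 1171 with no filter and 2313 at an average of 5 FPKM. Blocking by line changed no member's call under IFN-β or knockdown.

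Under knockdown, values without 1 line ran from −2.055 to 0.26 for PTGS2, −1.015 to 0.51 for PTGES, −0.41 to 0.16 for PTGES2, −0.06 to 0.37 for PTGES3, −0.28 to 0.19 for HPGD and −0.69 to 0.03 for PTGER4, so their signs turn with the line. Signs also turned elsewhere. PTGS2 in KYSE450 against KYSE180 was −0.03, but 0.15 with log2(FPKM + 0.1) and between −0.351 and 0.298 without 1 library. Under IFN-β, leaving out 1 line gave between −0.0948 (without KYSE180) and 0.0799 for PLA2G4A, and between −0.10 (without KYSE180) and 0.169 for PTGES2. PTGES2 in KYSE450 against KYSE30 was between −0.0215 (without treated KYSE30) and 0.277. PTGES3 in the knockdown experiment's lines was 0.0435 as deposited, and HPGD under knockdown was 0.38 with log2(FPKM + 0.1). The cause was not tested. Leaving out 1 library of a line assumes that the lone one varies like the others, and in the knockdown experiment it leaves values with no test. Unknown depth limits all values under about 1 FPKM.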
